A study of Homo sapiens with 4 samples.

Results

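EPCAM, matriptase (ST14), prostasin (PRSS8) and the Kunitz-type inhibitors SPINT1 and SPINT2 form a cell-surface system of epithelia. They were measured in H358 cells, a line derived from a human lung adenocarcinoma, with and without knockdown of ADAR, which edits adenosines of double-stranded RNA into inosines. The members were taken as every probe that the platform annotation assigns to 1 of these 5 gene symbols, which gave 8 of the 47322 probes in the deposited table: 3 for EPCAM, 2 for SPINT1 and 1 each for ST14, PRSS8 and SPINT2. The 5 genes are among 20046 that the annotation names by a single symbol. The genes were picked because they were known to be low in the knockdown arrays. Their differences between the groups are therefore given as a description, without a test.

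The series held 4 Illumina BeadChip arrays, whose signals are averages over the beads that carry a probe. According to the labels, H358 cells had received either a scrambled shRNA (2 arrays) or an shRNA against ADAR (2 arrays), and the labels name no further treatment or genotype. A short hairpin RNA (shRNA) is processed in the cell to a small RNA that targets transcripts of complementary sequence. The design text calls the replicates biological without saying whether they were separate cultures, so the spread between them may be technical, and 1 cell line and 1 named ADAR shRNA limit what the groups stand for.

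EPCAM is a transmembrane glycoprotein of epithelial cells that mediates adhesion and binds claudins, the sealing proteins of tight junctions. Matriptase is a serine protease anchored in the plasma membrane, and prostasin, tethered by a lipid anchor, is its partner, since each can help to activate the other. SPINT1 and SPINT2 encode transmembrane inhibitors (HAI-1 and HAI-2) whose Kunitz domains block both proteases. EPCAM is a reported substrate of matriptase, and inherited loss of either EPCAM or SPINT2 causes a congenital disease of the intestinal epithelium.

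Before the members are described, the arrays themselves need a description. Detected probes, those with a deposited detection p under 0.05 against the negative control beads, numbered 20031 to 20901 on the scrambled arrays and 18722 to 19294 on the ADAR shRNA arrays. Normalized log2 values over 21263 probes had a Pearson correlation of 0.982 within the scrambled pair and 0.986 within the ADAR shRNA pair, but at 0.801 to 0.824 across groups (probes are not independent replicates). Both groups carry the same cell line label, and no marker of cell identity other than expression was analysed here, so a difference in the cells themselves and an effect of the shRNA cannot be told apart in any result below. At its brightest probe the targeted gene ADAR read 2703 and 2676 raw units in scrambled cells, against 755 and 932 after knockdown, and fell by 1.03 log2 units (SE 0.22, limma adjusted p = 0.00561). The ADAR difference was -1.59 under median scaling, -1.72 with no normalization between arrays and -0.61 as the mean of its detected probes. Its other detected probe differed by -0.19 (adjusted p = 0.557). All 5 epithelial markers examined (KRT7, KRT8, KRT18, KRT19 and CDH1) were detected on both scrambled arrays, and all but CDH1 on both ADAR shRNA arrays, with summed raw signals of 16489.7 to 17258 and 2182 to 2444. The lung lineage factor NKX2-1 was detected on the scrambled arrays only, and the other 5 lung and alveolar markers on no array, with sums of 527 to 543 and 303 to 311. Among markers of other cells, 2 of 8 haematopoietic genes (CD14 and CD68) were detected on every array, with summed raw signals over the list of 1285 to 1383 in scrambled and 2342 to 2921 in ADAR shRNA cells, while PTPRC was not detected. CD14 rose by 4.01 (SE 0.28, adjusted p = 2.30e-05) and CD68 rose by 1.43 (SE 0.20, adjusted p = 0.000721). The fibroblast list, with 3 or 4 of 7 genes detected on a scrambled array and 1 on each ADAR shRNA array, summed to 542 to 629 and 411 to 422. The endothelial list, with 1 of 6 genes detected on the scrambled arrays and 0 on the others, summed to 320 to 352 and 289 to 298. The part of these shifts in the results below was not tested.

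All 8 member probes were detected on both scrambled arrays, each with a detection p of 0, and none was detected on either ADAR shRNA array, where detection p ran from 0.0545 to 0.974. Over the whole table, 11.8% of the 18182 probes detected on both scrambled arrays were detected on neither ADAR shRNA array. Raw signals of the members on the ADAR shRNA arrays lay between 38.7 and 63.2 units, within the range of signals not above background. Since every member entered the tested set only through the scrambled arrays, its values had to differ between groups. The fold given for each is therefore a lower bound, and only under the reported processing. It sets the mean of the scrambled arrays against the lowest detected signal of each ADAR shRNA array. Where the probe's own value on an array was higher, that value was used. With no background correction or an offset of 50, every member bound was smaller. In bulk RNA, fewer cells that carry a transcript and less transcript per cell cannot be told apart.

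**Figure D1:**
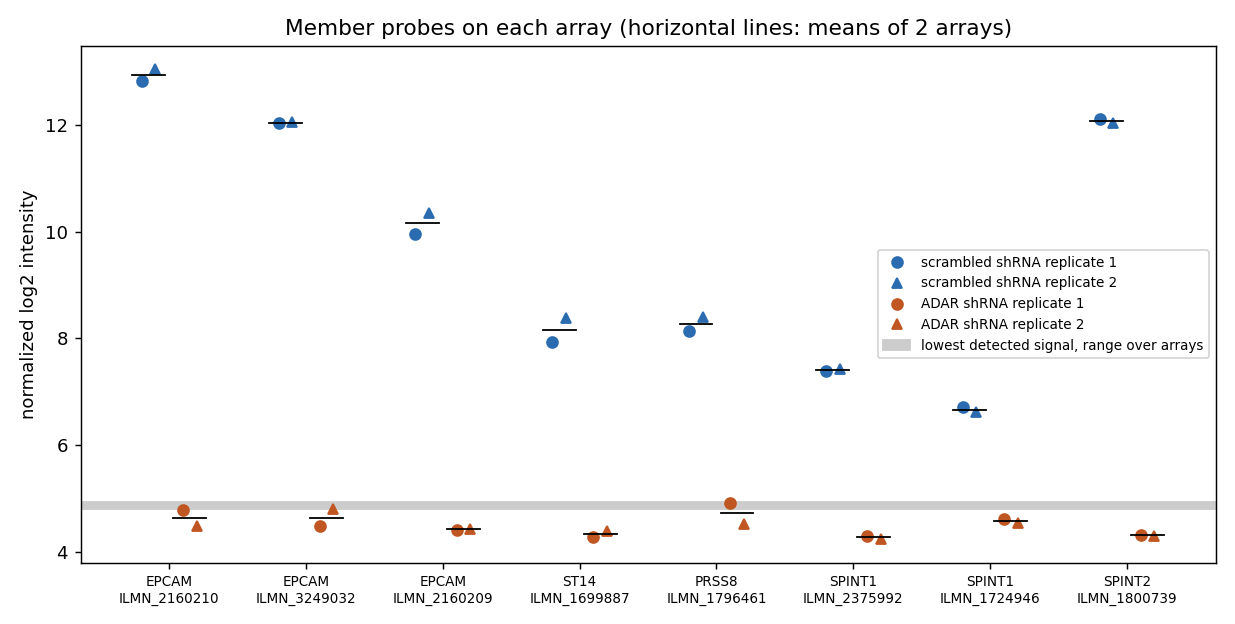
Normalized log2 intensity of each of the 8 member probes (columns) on the 4 arrays, blue for scrambled and orange for ADAR shRNA, circles for replicate 1 and triangles for replicate 2, with black lines at the means of 2 arrays and a grey band over the lowest detected signals of the arrays. The scrambled values of every probe lie above the band, and the ADAR shRNA values lie between 4.23 and 4.91, within or below it.

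The brightest EPCAM probe, ILMN_2160210, gave the highest bound of the 8 probes. It read 8517 and 8016 raw units in scrambled cells, against 60.7 and 51.3 in ADAR shRNA cells. On the normalized log2 scale this was 12.94 ± 0.16 (SD, n = 2) with the scrambled and 4.63 ± 0.22 (SD, n = 2) with the ADAR shRNA. The groups did not overlap, and EPCAM at this probe was at least 260.0-fold lower in ADAR shRNA cells, with a fitted log2 difference of -8.30 (SE 0.21). With an offset of 50 the bound was 122.6-fold.

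The other probes of EPCAM gave the same direction with smaller bounds. ILMN_3249032 read 5486 and 4405 on the scrambled arrays against 52.7 and 59.3, a bound of at least 140.8-fold (fitted difference -7.41, SE 0.20). ILMN_2160209 read 1500 and 1536 against 50.1 and 49.2, a bound of at least 37.9-fold (fitted difference -5.74, SE 0.21). With an offset of 50 the bounds of ILMN_3249032 and ILMN_2160209 were 66.6-fold and 18.3-fold. The 3 EPCAM probes thus spanned 2.56 log2 units in their fitted difference while all lay at background in ADAR shRNA cells, so the size of each bound follows how far that probe stood above background in scrambled cells.

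**Figure D2:**
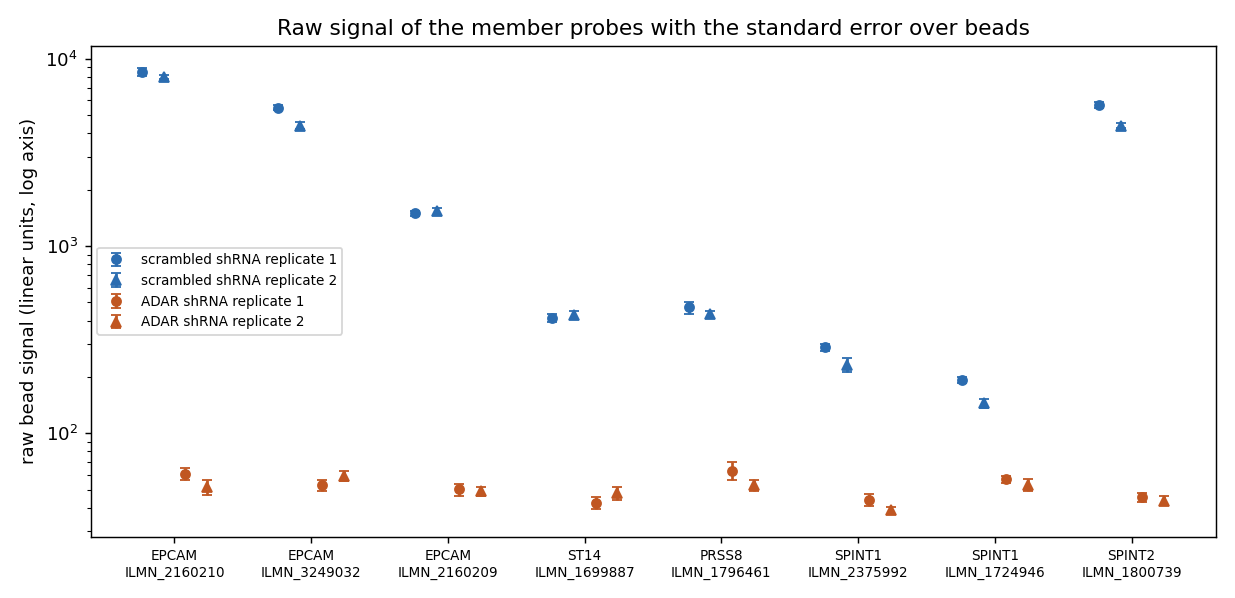
Raw bead signal of the member probes in linear units on a log axis, before any normalization, with bars for the standard error over the beads of each array (11 to 36 beads a probe). The scrambled readings (blue) stand clear of the ADAR shRNA readings (orange) for every probe, including the dimmest SPINT1 probe, at 192 and 145 against 56.8 and 52.9.

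Matriptase, the protease encoded by ST14, was read by ILMN_1699887 at 411 and 428 raw units in scrambled cells, against 42.4 and 47.9 in ADAR shRNA cells. Its normalized log2 level was 8.16 ± 0.32 (SD, n = 2) against 4.33 ± 0.08 (SD, n = 2), without overlap. This made it at least 9.47-fold lower (fitted difference -3.83, SE 0.22), or 5.001-fold with an offset of 50. Its raw readings in scrambled cells were close together, and lay further apart after normalization.

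Prostasin showed the same pattern. The PRSS8 probe ILMN_1796461 read 470 and 432 in scrambled cells, against 63.2 and 52.6 in ADAR shRNA cells. Of the latter, the reading of replicate 1 had a detection p of 0.0545, just outside the threshold of 0.05, and was the member reading nearest to detection in that group. PRSS8 averaged 8.27 ± 0.18 (SD, n = 2) in scrambled and 4.72 ± 0.28 (SD, n = 2) in ADAR shRNA cells. It was at least 10.3-fold lower (fitted difference -3.56, SE 0.22), or 5.37-fold with an offset of 50.

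Of the inhibitors, SPINT2, which encodes HAI-2, had the larger bound. Its probe ILMN_1800739 read 5670 and 4398 raw units in scrambled cells, against 45.5 and 43.7 in ADAR shRNA cells. The log2 level went from 12.08 ± 0.05 (SD, n = 2) to 4.31 ± 0.01 (SD, n = 2). SPINT2 was at least 144.1-fold lower (fitted difference -7.77, SE 0.18), or 68.2-fold with an offset of 50. The groups did not overlap. On the normalized scale each pair of arrays lay close together, though the raw scrambled readings were further apart. Both ADAR shRNA readings were at background.

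SPINT1, which encodes HAI-1, was read by a pair of probes. ILMN_2375992 gave 288 and 233 raw units on the scrambled arrays against 44.0 and 38.7. The bound was at least 5.62-fold (fitted difference -3.14, SE 0.18), or 3.19-fold with an offset of 50. ILMN_1724946 gave 192 and 145 against 56.8 and 52.9, a bound of at least 3.36-fold (fitted difference -2.09, SE 0.19), or 2.12-fold with an offset of 50. Neither probe overlapped between groups, and their SDs on the log2 scale were 0.03 and 0.06 in scrambled and 0.04 and 0.06 in ADAR shRNA cells (n = 2).

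Among the 5 genes, SPINT1 was the only one with entries in the RefSeq promoter table (build GRCh38.p14), with 2 start sites. The 250 bases before the upstream start site, chr15:40843798-40844047 on the plus strand, are shown because SPINT1 was among the genes that were low together. They were searched for motifs of regulators named further on and, apart from these, for the GC box. Only the GC box, which is not among the motifs of those regulators, had a match. Capitals mark the GC box GGGCGG or its complement CCGCCC, searched on both strands.
SPINT1: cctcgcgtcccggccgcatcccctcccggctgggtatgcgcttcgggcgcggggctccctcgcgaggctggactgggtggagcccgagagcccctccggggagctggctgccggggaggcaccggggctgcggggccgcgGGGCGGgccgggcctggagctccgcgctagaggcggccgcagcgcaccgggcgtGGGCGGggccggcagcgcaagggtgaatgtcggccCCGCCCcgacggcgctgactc
The window held 3 GC boxes, which did not overlap one another. At least 1 GC box was found in 42.6% of 35116 windows of this length before annotated start sites. The E-box CACCTG, a motif bound by SNAI and ZEB factors and read as CAGGTG on the other strand, was not in this window, and neither was the grainyhead-like core AACCGGTT, which is its own complement. The E-box was found in 17.5% and the core in 0.117% of all windows. Before the other SPINT1 start site there was 1 E-box, 0 GC boxes and 0 grainyhead-like cores.

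The bead standard error of the members was 2.67% to 8.13% of the signal on the scrambled arrays and 4.37% to 11.2% on the ADAR shRNA arrays. The raw signal was higher on scrambled replicate 1 for 6 of the 8 probes, and the normalized value was higher on scrambled replicate 2 for 6 of 8, so normalization reversed their order for some probes without bringing any near the ADAR shRNA level. On the authors' processed values, on a linear scale that can go below 0, the EPCAM probe ILMN_2160210 averaged 7875 in scrambled and 6.26 in ADAR shRNA cells, SPINT2 averaged 4381 and -6.60, ST14 286 and -5.84, PRSS8 309 and 8.57, and SPINT1 (ILMN_2375992) 161 and -10.3.

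The whole array shifted widely between the groups, which is the backdrop of these values. In the fit with limma over 21263 probes, 50.6% changed at an adjusted p under 0.05, 24.2% higher and 26.3% lower in ADAR shRNA cells, and the median difference was 0.00061. The 8 member probes were all among those lower, as were their 5 genes at the brightest probe (54.5% of genes changed, 30.3% lower), and among the 38.7% of probes whose groups did not overlap in that direction. Because the genes were picked on this contrast, nothing is read from these counts.

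**Figure D3:**
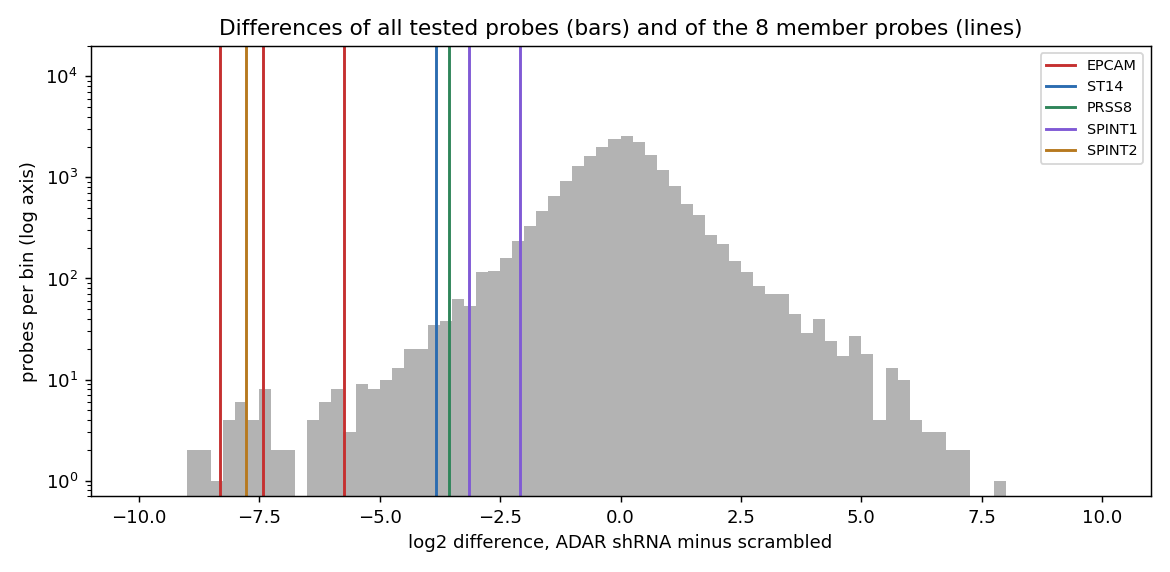
Distribution of the log2 difference, ADAR shRNA minus scrambled, over 21263 tested probes (bars, log axis) with coloured lines at the 8 member probes. The members, which were picked for being low, run from -8.30 for EPCAM to -2.09 for the dimmer SPINT1 probe.

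The members fell into 2 groups of like profiles over the 4 arrays. With each brightest probe centred on its own mean, the Euclidean distance between EPCAM and SPINT2 was 0.60 log2 units, and distances among ST14, PRSS8 and SPINT1 were 0.47 to 0.76. Between these groups the distances were 3.96 to 5.17. The split follows how far the scrambled signal stood above background and does not rank the true changes.

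Outside the system, the genes most like each member by the same distance over 4 arrays were named as a description. Those nearest to EPCAM were LCN2 (0.28 log2 units, lipocalin 2), PAGE5 (0.29, a cancer-testis antigen) and DHRS2 (0.57, a short-chain dehydrogenase). Nearest to SPINT2 were GAGE12C (0.095), GAGE12G (0.20) and GAGE4 (0.27), whose near-identical copies may share signal. The genes nearest to ST14 were MOXD1 (0.043), VCX3B (0.063) and ATP8B3 (0.10). PRSS8 lay nearest to GCNT1 (0.13), UNG (0.16) and DAAM1 (0.18), and SPINT1 to NNT (0.077), ANLN (0.085) and CYP2J2 (0.099). LCN2, UNG, DAAM1 and ANLN were detected on both ADAR shRNA arrays and GCNT1 on 1, while none of the other 10 was detected there.

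Genes beside the members on their chromosomes were examined as well. Of the 10 genes that flank the members among those tested, a set chosen after the data were seen, 3 fell and 1 rose in limma's fit, where 30.3% and 24.2% of 12197 genes fell and rose. Beside SPINT2, PPP1R14A fell by 3.41 (SE 0.20, adjusted p = 1.04e-05), while YIF1B on its other side differed by 0.13 (SE 0.20, adjusted p = 0.631). Beside EPCAM, BCYRN1 and MSH6 fell by 1.31 (SE 0.19) and fell by 1.55 (SE 0.20). Beside ST14, APLP2 rose by 1.36 (SE 0.22, adjusted p = 0.00158), and ZBTB44 differed by -0.53 (SE 0.22, adjusted p = 0.0805). The genes that flank PRSS8 and SPINT1 did not pass, with differences of -0.06 to 0.34.

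Other serine proteases, in a list made up mainly but not only of membrane-anchored ones, were mostly undetected. Of 18 genes of the list, 17 had a named probe and 4 were tested, each detected in 1 group only. These had to differ, so neither their counts nor their adjusted p can be read as support. PRSS22, which encodes tryptase epsilon and is not taken here as membrane-anchored, fell at least 4.35-fold (adjusted p = 0.00014). Its scrambled level was 7.03 ± 0.54 (SD, n = 2), and the bound was 2.60-fold with an offset of 50. TMPRSS4 fell at least 2.27-fold (adjusted p = 0.000229) and TMPRSS11E at least 1.65-fold (adjusted p = 0.000866). PRSS27, not detected on the scrambled arrays, rose at least 1.55-fold (adjusted p = 0.00401), or 1.25-fold with an offset of 50.

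Inhibitors other than SPINT1 and SPINT2 were read in a list of 16 Kunitz domain genes and serpins. Of these 9 were tested, 4 rose and 2 fell, where 24.2% of all genes rose and 30.3% fell. Both that fell, PAPLN and SERPINA5, were not detected in ADAR shRNA cells. These had to differ, so neither the count of falls nor their adjusted p can be read as support. The median difference of the 9 tested genes was 0.37, against -0.08 over all genes. TFPI2, a secreted Kunitz inhibitor of the tissue factor pathway family, rose by 4.93 (SE 0.20, adjusted p = 2.70e-06), from 6.32 and 6.59 on the scrambled arrays to 11.27 and 11.51 after knockdown. TFPI, the tissue factor pathway inhibitor, rose by 2.97 (SE 0.18, adjusted p = 1.35e-05), with its other probes at 3.39 and 4.47. SERPINE2, a serpin that inhibits prostasin, rose by 2.99 (SE 0.29, adjusted p = 0.000102), and its log2 level was 11.21 ± 0.56 in scrambled and 14.20 ± 0.26 in ADAR shRNA cells (SD, n = 2). PAPLN, which encodes papilin, fell at least 2.87-fold (adjusted p = 6.39e-05), or 1.89-fold with an offset of 50. SERPINA5 fell at least 1.29-fold (adjusted p = 0.0359), or 1.14-fold with an offset of 50. That call was lost under 6 of 14 alternatives, each array left out in turn included.

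Among substrates and receptors of the protease pair, the largest difference was that of PLAU. Of 21 genes 14 were tested, 8 fell and 2 rose, where 30.3% of all genes fell and 24.2% rose. Of the fallen MST1R and of the risen SCNN1B were each detected in 1 group only. These had to differ, so neither the counts nor the adjusted p of MST1R and SCNN1B can be read as support. With detection p under 0.01 required on all 4 arrays, 5 fell and 1 rose. Under that filter 3355 of 13130 probes fell and 3621 rose, and nothing is read from the count. The median difference was -1.27, against -0.08 over all genes. PLAU, which encodes urokinase, whose proenzyme matriptase activates, fell by 5.28 (SE 0.24, adjusted p = 3.66e-06), from 11.58 and 11.93 to 6.72 and 6.24. SCNN1A, the alpha subunit of the epithelial sodium channel that prostasin activates, fell by 3.85 (SE 0.20, adjusted p = 6.95e-06). MST1R, the receptor of macrophage-stimulating protein, fell at least 7.01-fold (adjusted p = 1.61e-05), or 3.85-fold with an offset of 50. MST1, the gene of its ligand, which matriptase can process, rose by 2.05 (SE 0.18, adjusted p = 7.49e-05). SCNN1B, the beta subunit of the channel, rose at least 1.18-fold (adjusted p = 0.0330), or 1.08-fold with an offset of 50. That call was lost under 7 of 14 alternatives (adjusted p = 0.00845 to 0.156), each array left out in turn included.

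Partners, cleaving enzymes and effectors of EPCAM changed in shares near those of all genes. Of 19 genes 16 were tested, 4 rose and 6 fell, where 24.2% of all genes rose and 30.3% fell. The median difference was -0.37, against -0.08 over all genes. Under median scaling 4 rose and 9 fell, where 2825 of all 21263 tested probes rose and 8487 fell. TSPAN8, a tetraspanin that associates with EPCAM, rose by 3.997 (SE 0.27, adjusted p = 2.02e-05), from 6.18 and 5.49 to 9.65 and 10.02. CLDN1, another claudin gene, rose by 3.61 (SE 0.29, adjusted p = 4.11e-05), and its log2 level was 6.72 ± 0.44 in scrambled and 10.33 ± 0.43 in ADAR shRNA cells (SD, n = 2). CLDN7, the claudin that EPCAM binds directly, was chosen after its values were seen and fell by 0.96 (SE 0.23, adjusted p = 0.00887), from 8.77 and 8.70 to 8.03 and 7.51. That call was lost without ADAR shRNA replicate 2 (-0.70, adjusted p = 0.0636), and the difference was -1.65 under median scaling and -1.78 with no normalization. PSEN2, a catalytic subunit of gamma-secretase, which releases the intracellular domain of EPCAM, rose by 1.77 (SE 0.19, adjusted p = 0.000173), with another probe at 1.64. Of the other gamma-secretase subunits tested, NCSTN rose by 1.37 (adjusted p = 0.001), APH1A fell by 1.41 (adjusted p = 0.000845) and PSENEN differed by -0.50 (adjusted p = 0.0567); these 3 were named after their values were seen. FHL2, a partner of that domain, fell by 1.81 (SE 0.19, adjusted p = 0.000166), with another probe at -1.75. CCND1, which encodes cyclin D1, fell by 2.04 (SE 0.22, adjusted p = 0.000174), and the fatty acid binding protein gene FABP5 fell by 1.76 (SE 0.23, adjusted p = 0.000484), with another probe at -1.72.

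Among regulators of epithelial genes, both activators and a repressor fell. Of 15 genes 8 were tested, 6 fell and 1 rose, where 30.3% of all genes fell and 24.2% rose. Of the 8, 4 were not detected in ADAR shRNA cells and 1 was not detected in scrambled cells. These had to differ, so neither the count nor their adjusted p can be read as support. The activator GRHL2, a grainyhead-like factor, fell at least 4.93-fold (adjusted p = 5.62e-05), and OVOL2, a repressor of mesenchymal genes, fell at least 7.83-fold (adjusted p = 6.71e-06). SNAI2, a repressor of epithelial genes, fell at least 18.4-fold (adjusted p = 2.41e-06), with its other probe at -2.64. With an offset of 50 these bounds were 2.87-fold for GRHL2, 4.22-fold for OVOL2 and 9.21-fold for SNAI2. ZEB2, another such repressor, was not detected on the scrambled arrays and rose at least 1.90-fold (adjusted p = 0.00546). With an offset of 50 its bound was 1.42-fold. SNAI2, OVOL2, GRHL2 and KLF5, like the members, were detected on both scrambled arrays and on neither ADAR shRNA array. The same held for 11.8% of the 18182 probes detected on both scrambled arrays, and a link between regulators and members was not tested.

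**Figure D4:**
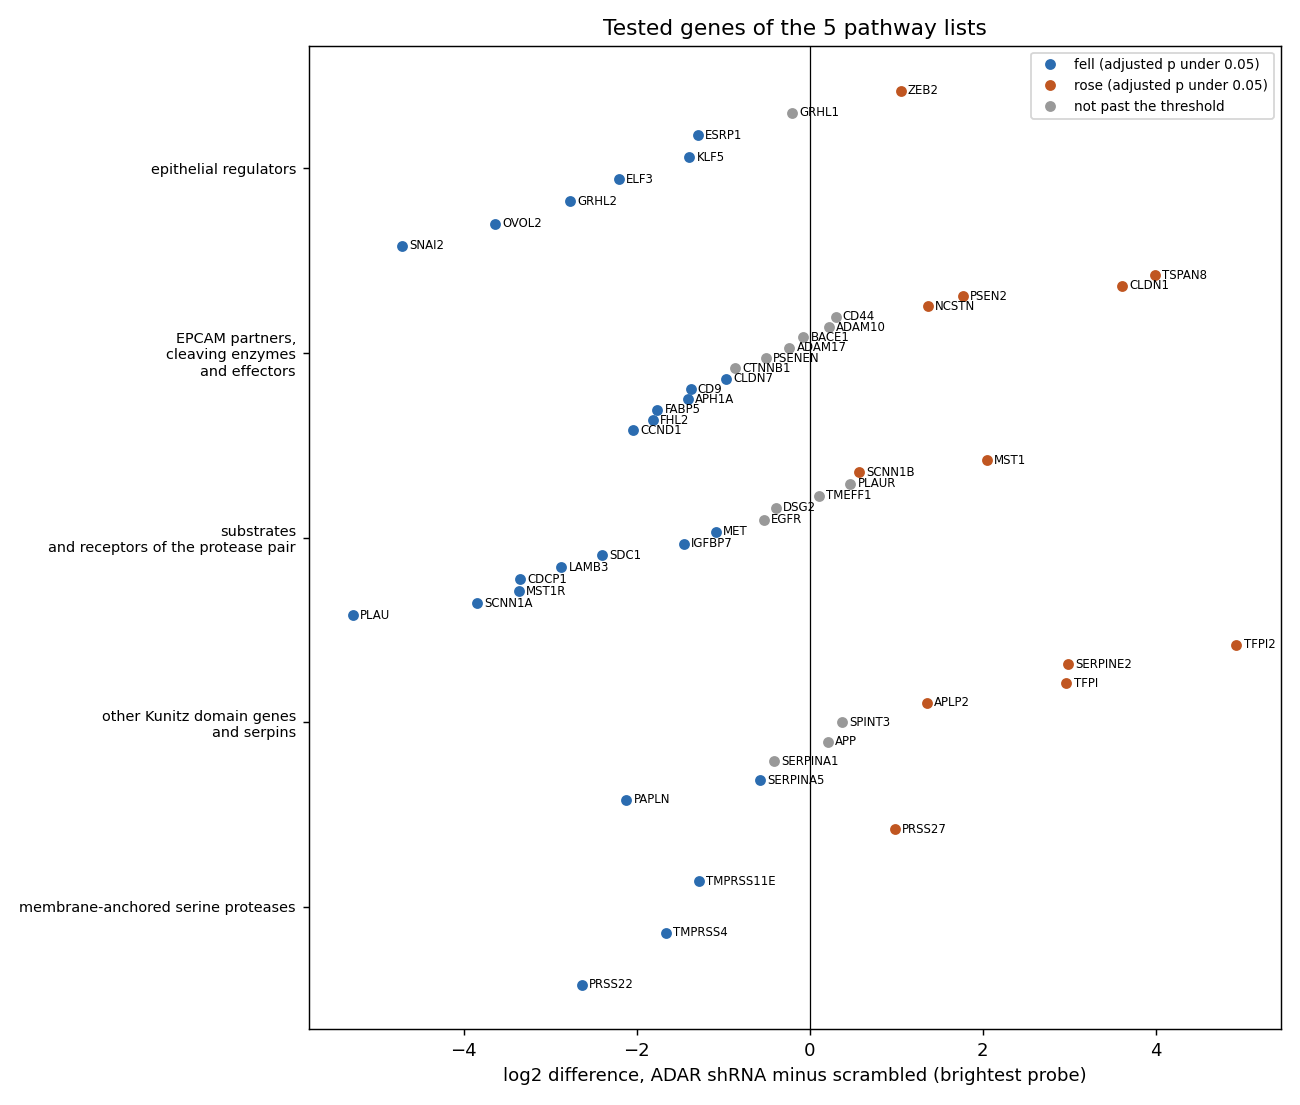
Log2 difference, ADAR shRNA minus scrambled, of each tested gene at its brightest probe in the 5 lists, 1 point per gene, blue where it fell, orange where it rose and grey where it did not pass an adjusted p under 0.05. The protease substrates run from -5.28 for PLAU to 2.05 for MST1, and the Kunitz and serpin genes from -2.12 for PAPLN to 4.93 for TFPI2.

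Processing changed the size of the members' differences but not their direction. The members were picked as low and lay at background on the ADAR shRNA arrays, so the stable direction is no support. With an offset of 50 in place of 16, the bound was 122.6-fold for EPCAM, 68.2-fold for SPINT2, 5.37-fold for PRSS8, 5.001-fold for ST14 and 3.19-fold for SPINT1, each at its brightest probe. With no background correction the bounds were 118-fold, 65.9-fold, 5.22-fold, 4.87-fold and 3.12-fold in the same order.

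**Figure D5:**
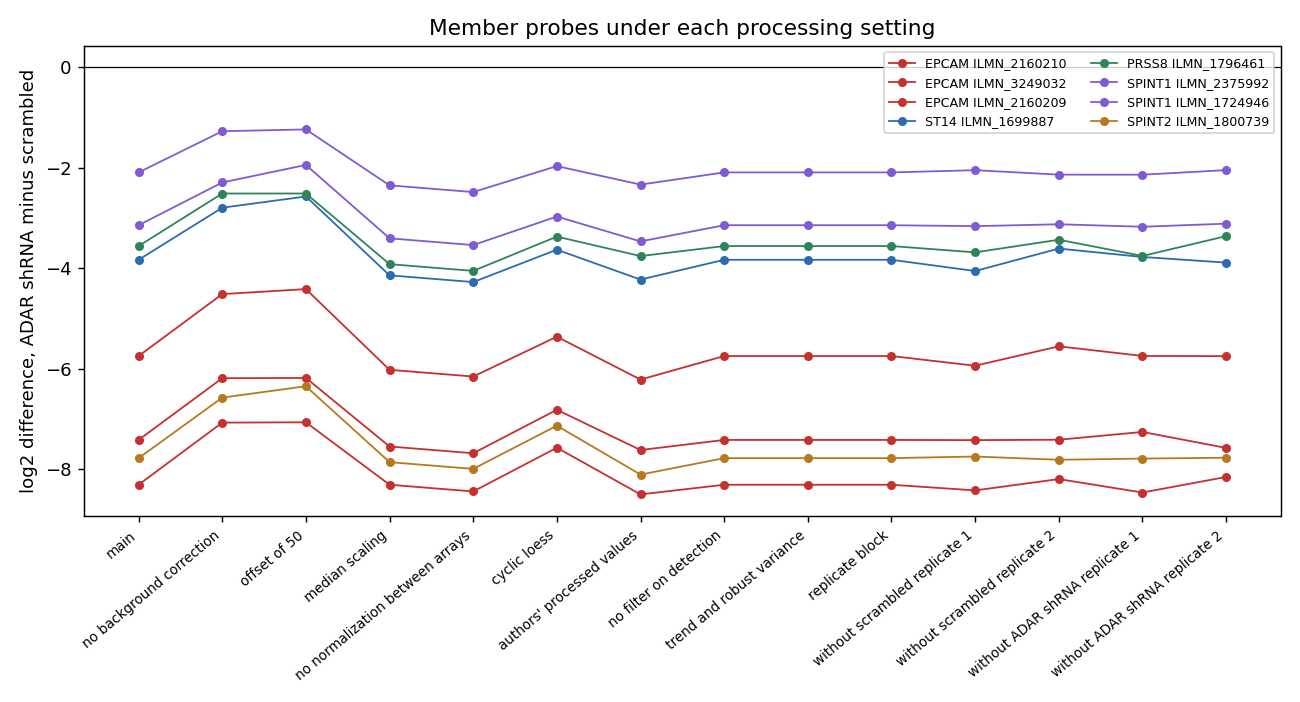
Fitted log2 difference of each member probe (lines) under the reported processing (main) and 13 alternatives. All values lie below 0, and those with no background correction or an offset of 50 lie nearest to 0, from -7.07 for EPCAM to -1.24 for the dimmer SPINT1 probe.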

How the data were processed

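The authors deposited, per the file headers, a table of mean bead signal intensity, bead number, bead standard error and detection p-value for 47322 probes on 4 arrays, linear and not normalized. GenomeStudio made the values, per the submitters' processing notes (version not given in the sources used here). The deposited processed intensity values have no stated normalization and served as an alternative.

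Intensities were corrected with limma 3.58.1's normexp model (R 4.3.3, background from detection p-values, offset 16), then log2 transformed and quantile normalized. Probes with detection p under 0.05 on at least 2 arrays (21263) entered lmFit and eBayes, 2 ADAR shRNA against 2 scrambled arrays without a block (2 residual and 5.83 prior degrees of freedom), 2-sided, Benjamini-Hochberg adjusted. A gene was read at its brightest probe (12197 genes). Differences are ADAR shRNA minus scrambled, with moderated SE. The number of arrays limits the precision. Where neither array of a group detected a probe, its level there is known only as a bound.

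The annotation gave 1 symbol to 30113 probes and several to 8, and 17201 are unnamed here. Of the first, 30074 matched the current gene table (GRCh38.p14), and 0 symbols needed updating. Members and lists were chosen with earlier results of these data known. Named were all member probes, ADAR, per list up to 3 rises and 3 falls with the largest log2 difference among called genes whose groups did not overlap, and the 3 genes most like each member. Within the scrambled pair 42.4% and within the ADAR shRNA pair 30.1% of detected probes lay further apart than bead error allows (1.96 standard errors), so no array was counted as a copy of another; technical repeats of 1 RNA could differ as much. Tested on simulated data (21263 probes, 200 changed), the fit recovered 14% of differences of 1 and 95% of 2 log2 units, with 8 false calls. In the data 10750 probes were called, far more than the 200 changed there. The adjustment was therefore stricter in the simulation, and its recovery rates are not those of the reported fit. Alternatives covered background, normalization, filter, variance model, replicate block, probe choice and each array left out. The files give no slide or scan date.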

Additional observations from a re-analysis of the deposited data

How the results depend on the processing

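All 8 member probes stayed lower in ADAR shRNA cells under every alternative that could be run on them. Since they were picked as low in this contrast, that is no support. Requiring detection p under 0.01 on all 4 arrays removed every member and gave no value. The differences of EPCAM, ST14, PRSS8, SPINT1 and SPINT2, at their brightest probes and in that order, were -7.07, -2.79, -2.51, -2.29 and -6.57 with no background correction, and -7.06, -2.57, -2.51, -1.94 and -6.35 with an offset of 50. With no normalization between arrays, ST14, PRSS8, SPINT1 and SPINT2 read -4.27, -4.05, -3.54 and -7.99, and under median scaling -4.14, -3.92, -3.40 and -7.85. EPCAM, SPINT1 and SPINT2 read -7.57, -2.97 and -7.13 with cyclic loess, and EPCAM, ST14, SPINT1 and SPINT2 read -8.50, -4.22, -3.46 and -8.10 on the authors' values. With the mean of all its probes EPCAM read -7.15 and SPINT1 -2.62. Leaving out 1 array gave -8.46 to -8.15 for EPCAM, -4.05 to -3.61 for ST14, -3.75 to -3.36 for PRSS8, -3.17 to -3.11 for SPINT1 and -7.81 to -7.74 for SPINT2. The median of all probes lay at -0.38 under median scaling and -0.52 with no normalization; relative to it, EPCAM read -7.92 and SPINT1 -3.02 under both.

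Of the 10750 changed probes 48.0% rose, against 25.0% under median scaling (2825 rose, 8487 fell) and 19.2% with no normalization (2130 and 8986). The stricter detection filter left 6976 changed, of which 3355 fell. Leaving out 1 array gave 8105 to 9316 changed, 3877 to 4430 risen and 4228 to 4886 fallen. Under median scaling and with no normalization, 10 substrate genes and 9 EPCAM partner genes fell. The stricter filter left 0 risen and 0 fallen proteases, 0 fallen Kunitz and serpin genes, 1 risen and 5 fallen substrates, and 0 risen and 0 fallen regulators, since it removes genes lost from a group. One Kunitz or serpin gene fell (1) and 1 substrate rose with no background correction or an offset of 50, and 1 substrate rose with no normalization. Leaving out 1 array gave 1 fallen Kunitz or serpin gene, 1 to 2 risen substrates and 5 to 7 fallen EPCAM partners. Of 25 named list genes 22 kept their call under every alternative run; SERPINA5, SCNN1B and CLDN7 did not. The groups share replicate numbers that no label ties to a batch, and same-numbered deviations correlated at 0.14 over probes. With the replicate block 11573 probes changed; in this balanced layout a block cannot change a difference.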
